A study of Homo sapiens with 9 samples.

Results

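The DNA replication machinery of OVCAR4 cells was followed through 43 genes, which were taken by gene name from the 58735 genes of the count table. They cover origin recognition and loading, the MCM2-7 helicase ring, helicase activation, the DNA polymerases and primase, the sliding clamp with its loader and the enzymes that join Okazaki fragments, the single-strand binding protein RPA, and nucleotide supply. All 43 names were found once each, and all 43 passed the filter on low counts, with 118 to 11511 raw counts per library. OVCAR4 is an established human ovarian cancer line, labelled as ovarian serous adenocarcinoma. Poly-A RNA was sequenced from 9 cultures. The scr control group had 3 libraries from cells transduced with a scramble shRNA, whose genotype label is WT. The shMPZL3 #1 and shMPZL3 #2 groups had 3 libraries each from cells transduced with one of the shRNAs against MPZL3, an immunoglobulin-domain membrane protein, and labelled as MPZL3 knock-down. Every group had received a shRNA virus and 3 days of puromycin, so no untransduced cells entered the comparisons. The replicates were biological replicates, and each knockdown group is the response to a single shRNA sequence at a single time. The comparisons ask how MPZL3 knockdown alters transcript levels of the replication genes, and whether the shRNAs do so alike.

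Replication of a chromosome starts at origins. The origin recognition complex, CDC6 and CDT1 load the ring of MCM2 to MCM7 onto DNA before S phase, and the kinase CDC7 with its activator DBF4 then helps CDC45 and the GINS complex to join the ring and form the active helicase. Polymerase alpha with primase lays down primers, polymerases delta and epsilon extend them, the clamp PCNA holds the polymerase on DNA, and FEN1 and LIG1 finish the lagging strand. Transcripts of many of these genes are highest around the start of S phase, when E2F factors act on their promoters, and proliferating tumor lines such as OVCAR4 express them at high levels.

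Total counts ranged from 15040102 to 27835841 per library. MPZL3 had 536, 611 and 587 normalized counts (counts scaled to a common library size) in the 3 scr control libraries, 119, 143 and 123 with shMPZL3 #1, and 284, 380 and 271 with shMPZL3 #2. MPZL3 was thus below every control library in all 6 knockdown libraries, and it was 1.28 ± 0.16 (SE, log2 scale) higher with shMPZL3 #2 than with shMPZL3 #1 (adjusted p = 5.72e-05). Throughout, fold changes, their SE and adjusted p-values come from edgeR's quasi-likelihood test with Benjamini-Hochberg adjustment over 16928 genes, and a gene was called at an adjusted p under 0.05. Of 7 ovarian carcinoma and epithelial markers, all but WT1 passed the filter on low counts, and PAX8, EPCAM, KRT7, KRT8, KRT18 and MUC16 each had at least 3381 counts in every library. WT1 had 3 to 13 counts. MUC16 was called lower with shMPZL3 #1 (log2 fold change -0.61, adjusted p = 0.00739). PAX8 (0.29, adjusted p = 0.0406) and KRT7 (0.35, adjusted p = 0.0325) were called higher with it. None of the ovarian carcinoma and epithelial markers was called with shMPZL3 #2 or in the grouped comparison. Of 7 markers of other cell types, CD3E, CD68 and DCN did not pass the filter, and DCN had no count in any library. The summed normalized counts of those 7 markers were 196 to 219 in scr control, 204 to 298 with shMPZL3 #1 and 331 to 432 with shMPZL3 #2, so that scr control and shMPZL3 #1 overlapped. Most of these counts were LUM, with 62 to 318 raw counts, and VWF, with 67 to 151. LUM was called higher with shMPZL3 #1 (log2 fold change 0.79, adjusted p = 0.0246) and with shMPZL3 #2 (1.45, adjusted p = 0.000736). The part of these markers in the results was not tested.

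Replication transcripts were lower in the knockdown libraries, and far more of them with shMPZL3 #1 than with shMPZL3 #2. With shMPZL3 #1, 36 of 43 genes were called lower than scr control, where 15.3% of all genes tested were called lower. With shMPZL3 #2, 8 of 43 were called lower, against 5.8% of all genes. When the 6 knockdown libraries were taken as one group, 11 of 43 were called lower, against 6.4% of all genes. No replication gene was called higher than scr control in any of these comparisons, where the share of all genes called higher was 16.8% with shMPZL3 #1, 9.36% with shMPZL3 #2 and 9.36% in the grouped comparison. At an unadjusted p under 0.05 the number higher was 0 with shMPZL3 #1, 0 in the grouped comparison and 1 with shMPZL3 #2, which was GINS3. DESeq2 likewise called GINS3 higher with shMPZL3 #2 and none in the other comparisons. The median log2 fold change of the 43 genes was -0.56 with shMPZL3 #1 (range -1.07 to -0.07), -0.18 with shMPZL3 #2 (-0.61 to 0.56) and -0.34 in the grouped comparison (-0.83 to 0.24), beside medians of 0.01, 0.00 and 0.02 over all genes tested. On the linear scale these medians are -32.2%, -11.8% and -20.9%. Both shRNAs were compared with the same 3 control libraries, so the comparisons are not independent of each other. In bulk RNA, fewer cells in S phase and less of each transcript per cell cannot be told apart.

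The genes called lower with both shRNAs were MCM6, GINS4, CDC7, PRIM1, POLD3, RFC3, RPA1 and RRM1, 8 of 43, where 3.53% of all genes tested were called lower with both. The other 28 genes called with shMPZL3 #1 were not called with shMPZL3 #2. CDT1, MCM5, GINS3, POLA1, POLA2, POLE2 and RRM2, 7 genes, were called in no comparison with scr control. By library values, all 6 knockdown libraries lay below all 3 controls for 19 of 43 genes, against 11.0% of all genes tested. All 3 shMPZL3 #1 libraries lay below all 3 controls for 37 genes, against 22.8% of all genes, and all 3 shMPZL3 #2 libraries did so for 19 genes, against 17.6%. The counts changed to different degrees when 1 library was left out. An omission also leaves fewer libraries in its group, so a lost call need not rest on the library omitted. Of the 36 calls with shMPZL3 #1, 29 held whichever library was left out, and the count stayed between 30 and 37. Of the 8 calls with shMPZL3 #2, 0 held under every omission. That count was 2 without scr control replicate 1, 2 without replicate 2 and 4 without replicate 3 of the control, and 3 without shMPZL3 #2 replicate 1 and 0 without shMPZL3 #2 replicate 3. The grouped count of 11 was 1, 3 and 4 without scr control replicates 1, 2 and 3, 7 without shMPZL3 #1 replicate 1 and 17 without shMPZL3 #2 replicate 2, and RPA1 was the gene called in every case. With the mean of the shRNA contrasts in place of the grouped fit, which leaves the difference between the shRNAs out of the spread, the grouped count was 29. The share of all genes called under that fit is not given here, so this count has no background beside it.

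**Figure D1:**
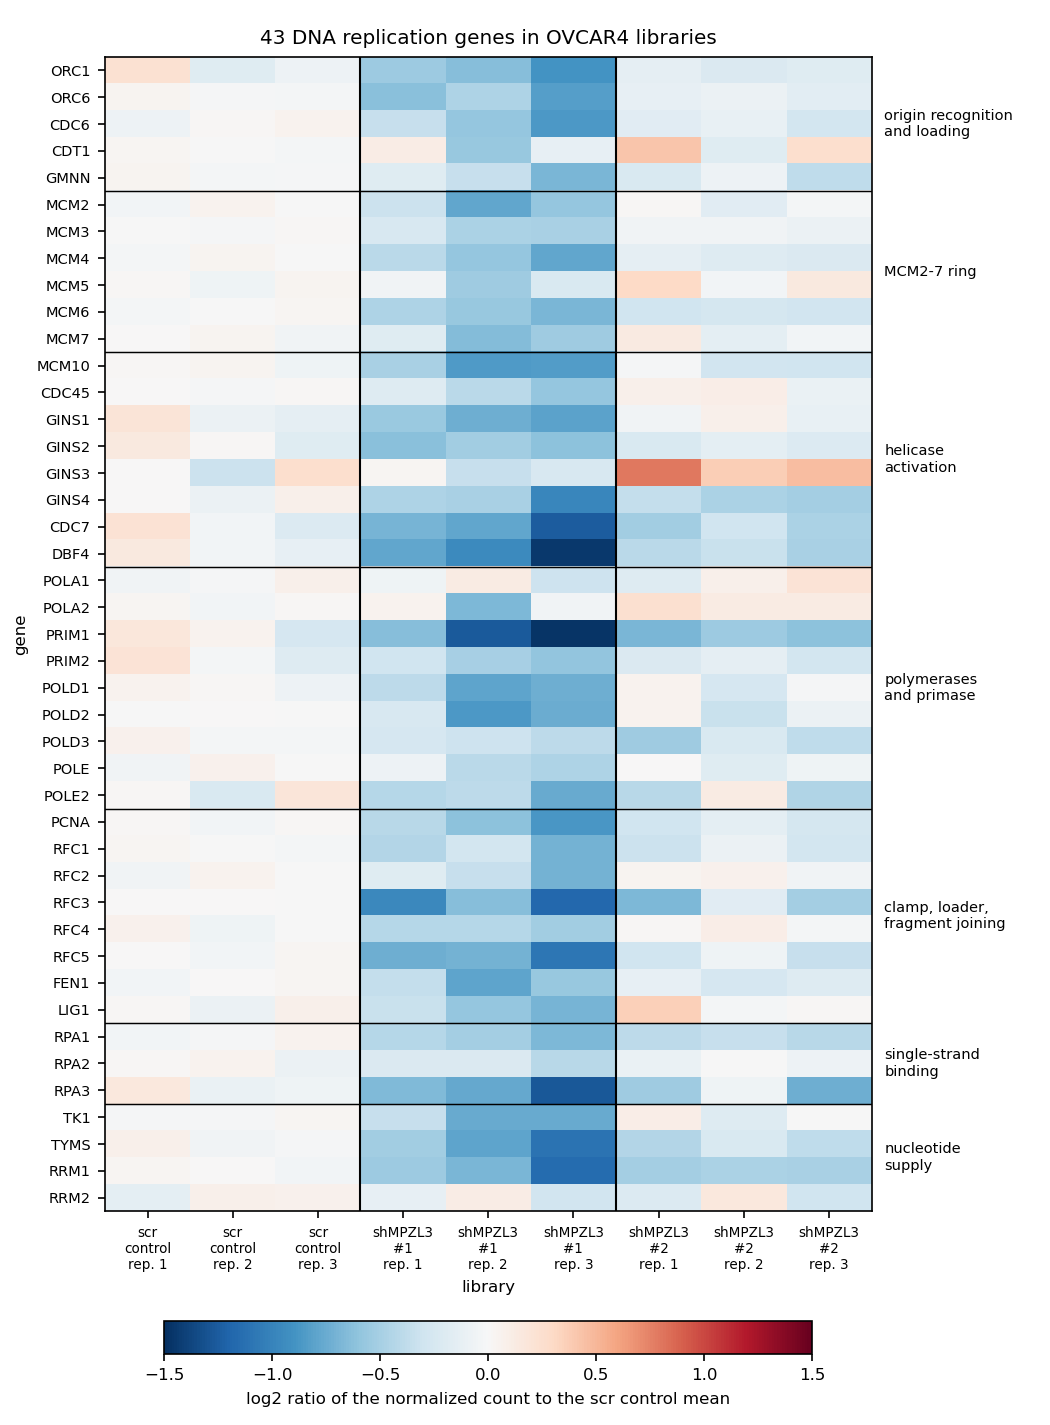
Log2 ratio of the normalized count to the scr control mean for each of the 43 genes (rows, grouped by role) in each of the 9 libraries (columns). Blue is lower than the control mean, and the median over the genes was -0.39, -0.57 and -0.71 in the 3 shMPZL3 #1 libraries and -0.14, -0.15 and -0.20 in the 3 shMPZL3 #2 libraries.

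E2F octamers were more frequent in the promoters of these genes than in those of all genes tested. The genes were not chosen by promoter letters, but E2F factors are known to act on many of them. The difference therefore describes a known trait of the list and is no independent result. RefSeq promoter windows on GRCh38.p14, from 250 bases before to 50 bases after the transcript start, were matched by symbol for 37 of 43 genes. MCM4, MCM5, GINS4, POLD3, RPA2 and RPA3 were not matched. Of the matched genes, 9 had several windows, and the first listed was used for every gene. For MCM10, GINS1, CDC7 and POLD2 the end of the window was not found in an annotated transcript of the gene. The windows were searched on both strands for 4 E2F octamers (TTTCCCGC, TTTCGCGC, TTTGGCGC and TTTGCCGC), for the CHR element TTTGAA, and for CCAAT. Overlapping octamers were counted as 1 site. An E2F octamer was found in 17 of 37 replication gene promoters, 45.9%, against 5.18% of the 11281 promoters of genes tested and 3.33% of all 27305 promoters. CCAAT was found in 20 of 37, 54.1%, against 35.9% of genes tested and 35.7% of all promoters. TTTGAA was found in 2 of 37, DBF4 and RRM1, 5.41% against 9.57% and 15.4%. A match describes the letters and not the binding of a factor. Among the matched genes called lower with both shRNAs, 2 of 6 held an octamer, and among the matched genes called in no comparison with scr control, 5 of 6 did. For shMPZL3 #1 the log2 fold change at the median was -0.53 over the 17 genes with an octamer and -0.60 over the 20 without, and for shMPZL3 #2 it was -0.06 and -0.19.

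The windows of MCM6 and RFC3, which hold an octamer and were lower with both shRNAs, and those of CDT1 and GINS3, which hold one and were not, are given 5′ to 3′ on the strand of the gene from RefSeq (GRCh38.p14), with octamer sites in capitals. The sites lie at -152 to -141 and -90 to -79 from the transcript start in MCM6, at -55 to -48 in RFC3, at -35 to -28 in CDT1 and at -5 to 3 in GINS3, where 1 is the start base and there is no 0.
MCM6, minus strand, chr2:135876394-135876693: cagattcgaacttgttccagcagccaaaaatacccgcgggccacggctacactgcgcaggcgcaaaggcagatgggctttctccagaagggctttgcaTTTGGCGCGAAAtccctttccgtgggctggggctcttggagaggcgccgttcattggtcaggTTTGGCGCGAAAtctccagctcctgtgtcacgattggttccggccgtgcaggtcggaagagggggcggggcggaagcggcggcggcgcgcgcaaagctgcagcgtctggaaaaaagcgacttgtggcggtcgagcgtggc
RFC3, plus strand, chr13:33817899-33818198: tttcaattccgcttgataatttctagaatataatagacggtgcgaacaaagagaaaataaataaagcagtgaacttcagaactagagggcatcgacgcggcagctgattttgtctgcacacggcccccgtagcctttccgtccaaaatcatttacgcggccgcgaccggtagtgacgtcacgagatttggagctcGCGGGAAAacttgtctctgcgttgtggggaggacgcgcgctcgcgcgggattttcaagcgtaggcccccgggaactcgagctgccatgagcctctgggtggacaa
CDT1, plus strand, chr16:88803539-88803838: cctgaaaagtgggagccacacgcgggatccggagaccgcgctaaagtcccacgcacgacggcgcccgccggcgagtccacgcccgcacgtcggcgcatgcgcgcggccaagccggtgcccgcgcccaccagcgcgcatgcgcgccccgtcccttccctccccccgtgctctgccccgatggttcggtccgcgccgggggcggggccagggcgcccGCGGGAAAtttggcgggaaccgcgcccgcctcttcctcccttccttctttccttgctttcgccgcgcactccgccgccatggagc
GINS3, plus strand, chr16:58392221-58392520: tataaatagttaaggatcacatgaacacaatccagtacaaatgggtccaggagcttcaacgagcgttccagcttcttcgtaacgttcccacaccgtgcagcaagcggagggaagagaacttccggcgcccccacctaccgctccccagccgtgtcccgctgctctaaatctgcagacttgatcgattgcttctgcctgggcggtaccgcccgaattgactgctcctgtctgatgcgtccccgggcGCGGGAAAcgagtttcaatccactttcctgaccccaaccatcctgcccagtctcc
In MCM6 each site is a stretch in which TTTGGCGC overlaps GCGCGAAA, the reverse complement of TTTCGCGC, while RFC3, CDT1 and GINS3 each hold the same octamer, TTTCCCGC, as its reverse complement GCGGGAAA.

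**Figure D2:**
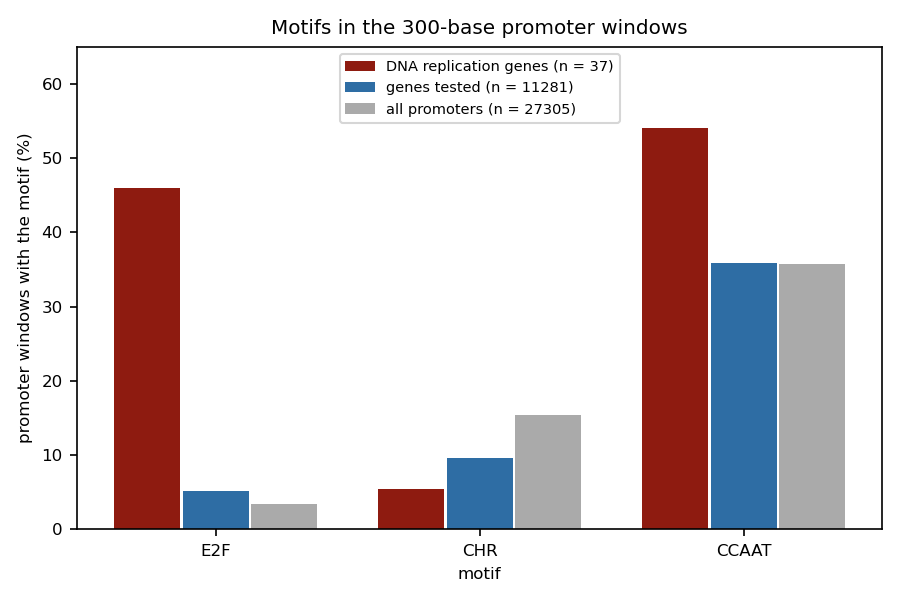
Share of promoter windows with each motif (bars, percent of windows) for the 37 matched replication genes, the promoters of genes tested and all promoters of the table. The E2F bar of the replication genes stands at 45.9%, above 5.18% and 3.33% in the other sets.

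Origin recognition and loading held 5 genes, of which 4 were called lower with shMPZL3 #1, 0 with shMPZL3 #2 and 0 in the grouped comparison. ORC1, a subunit of the origin recognition complex (chromosome 1, 52372829 to 52404459), had 730, 552 and 594 normalized counts in scr control, 430, 402 and 336 with shMPZL3 #1, and 571, 540 and 549 with shMPZL3 #2. The shMPZL3 #1 libraries lay below all others and the shMPZL3 #2 libraries overlapped the controls. ORC1 fell with shMPZL3 #1 (log2 fold change -0.68 ± 0.13 SE, adjusted p = 0.00104), and its change was -0.17 ± 0.13 with shMPZL3 #2 (adjusted p = 0.411) and -0.41 ± 0.17 in the grouped comparison (adjusted p = 0.111). ORC6, CDC6 and the CDT1 inhibitor geminin (GMNN) fell with shMPZL3 #1 by 0.63, 0.58 and 0.39 on the log2 scale. The GMNN call was lost without scr control replicate 1 or 2 or shMPZL3 #1 replicate 3. CDT1, the loader that geminin restrains, was the gene of this role called in no comparison with scr control. It had 1169, 1149 and 1130 normalized counts in scr control, 1246, 775 and 1057 with shMPZL3 #1, and 1535, 1011 and 1372 with shMPZL3 #2, so that the groups overlapped. Its log2 fold change was -0.16 ± 0.16 with shMPZL3 #1 (adjusted p = 0.464), 0.18 ± 0.16 with shMPZL3 #2 (adjusted p = 0.468) and 0.02 ± 0.17 in the grouped comparison (adjusted p = 0.949).

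Of the 6 genes of the MCM2-7 ring, the helicase core, 5 were called lower with shMPZL3 #1, 1 with shMPZL3 #2 and 1 in the grouped comparison. MCM6 (chromosome 2, 135839626 to 135876426) was the gene called with both. It had 2893, 2950 and 3026 normalized counts in scr control, 2153, 1994 and 1845 with shMPZL3 #1, and 2402, 2465 and 2430 with shMPZL3 #2. The groups did not overlap and shMPZL3 #2 lay between the others. MCM6 fell by 0.57 ± 0.09 with shMPZL3 #1 (log2 scale, SE, adjusted p = 0.000220) and by 0.28 ± 0.09 with shMPZL3 #2 (adjusted p = 0.0459), and by 0.42 ± 0.11 in the grouped comparison (adjusted p = 0.0204). The shMPZL3 #2 call of MCM6 was lost without any of the scr control or shMPZL3 #2 libraries, with adjusted p up to 0.17, and the grouped call without any scr control library. MCM2, MCM3, MCM4 and MCM7 fell with shMPZL3 #1 by 0.55, 0.39, 0.58 and 0.44 on the log2 scale, and had -0.06, -0.06, -0.18 and -0.01 with shMPZL3 #2. MCM5 was the ring gene not called with shMPZL3 #1. It had 2153, 2036 and 2179 normalized counts in scr control, 2050, 1472 and 1811 with shMPZL3 #1, and 2614, 2058 and 2352 with shMPZL3 #2, and both knockdown groups overlapped the controls. Its log2 fold change was -0.26 ± 0.12 with shMPZL3 #1 (adjusted p = 0.116), 0.14 ± 0.12 with shMPZL3 #2 (adjusted p = 0.466) and -0.04 ± 0.15 in the grouped comparison (adjusted p = 0.874). It was called lower with shMPZL3 #1 without replicate 1 of that group and with the replicate block, and whether its change differs from those of the other ring genes was not tested. All 6 ring genes were called higher with shMPZL3 #2 than with shMPZL3 #1, with log2 differences from 0.28 to 0.49.

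Helicase activation held 8 genes, of which 7 were called lower with shMPZL3 #1, 2 with shMPZL3 #2 and 3 in the grouped comparison. The kinase pair had the lowest fold changes of these genes with shMPZL3 #1 and in the grouped comparison, though not with shMPZL3 #2. DBF4 (chromosome 7, 87876216 to 87909541), the activator, had 2025, 1771 and 1673 normalized counts in scr control, 1066, 938 and 670 with shMPZL3 #1, and 1376, 1452 and 1297 with shMPZL3 #2. The groups did not overlap. DBF4 fell by 1.03 ± 0.14 with shMPZL3 #1 (log2 scale, SE, adjusted p = 4.87e-05) and by 0.69 ± 0.19 in the grouped comparison (adjusted p = 0.0287), and its change with shMPZL3 #2 was -0.41 ± 0.14 (adjusted p = 0.0522), just outside the threshold. The grouped call was lost without any scr control library or without shMPZL3 #1 replicate 1. CDC7, the kinase itself, had 1343, 1121 and 1005 normalized counts in scr control, 711, 675 and 488 with shMPZL3 #1, and 808, 942 and 832 with shMPZL3 #2. Its groups did not overlap either, and it fell by 0.89 with shMPZL3 #1 and by 0.43 with shMPZL3 #2 on the log2 scale. The shMPZL3 #2 call of CDC7 had an adjusted p of 0.0487 and was lost when any of 5 libraries was left out, and its grouped call without scr control replicate 1 or 2.

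Of the 4 subunits of GINS, the complex that joins CDC45 and the ring, 3 were called lower with shMPZL3 #1 and 1, GINS4, with shMPZL3 #2, and whether the subunits differ in their change was not tested. GINS4 had 900, 838 and 942 normalized counts in scr control, 650, 639 and 455 with shMPZL3 #1, and 695, 641 and 629 with shMPZL3 #2. The knockdown groups lay below the controls and overlapped each other, and GINS4 fell by 0.62 and 0.45 on the log2 scale with shMPZL3 #1 and shMPZL3 #2. The shMPZL3 #2 call of GINS4 was lost when any of 4 libraries was left out, and its grouped call without scr control replicate 1 or 3. GINS1 and GINS2 fell with shMPZL3 #1 by 0.69 and 0.59, and had -0.03 and -0.20 with shMPZL3 #2. GINS3 (chromosome 16, 58295080 to 58406144) had 170, 136 and 202 normalized counts in scr control, 173, 133 and 144 with shMPZL3 #1, and 293, 219 and 233 with shMPZL3 #2. All 3 shMPZL3 #2 libraries lay above all 6 others. Its log2 fold change was -0.17 ± 0.19 with shMPZL3 #1 (adjusted p = 0.541), 0.56 ± 0.18 with shMPZL3 #2 (adjusted p = 0.0506), just outside the threshold, and 0.24 ± 0.24 in the grouped comparison (adjusted p = 0.539). Under 9 of 15 alternatives, DESeq2 among them, GINS3 was called higher with shMPZL3 #2. MCM10 and CDC45, other helicase factors, fell with shMPZL3 #1 by 0.71 and 0.38, and had -0.19 and 0.03 with shMPZL3 #2. The CDC45 call was lost without shMPZL3 #1 replicate 3.

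Of 9 genes for the polymerases and primase, 6 were called lower with shMPZL3 #1, 2 with shMPZL3 #2 and 2 in the grouped comparison. PRIM1 (chromosome 12, 56731596 to 56752373), the catalytic subunit of primase, had 347, 319 and 258 normalized counts in scr control, 199, 128 and 112 with shMPZL3 #1, and 192, 211 and 201 with shMPZL3 #2. All 6 knockdown libraries lay below all controls, and the shRNA groups overlapped. PRIM1 fell by 1.07 ± 0.20 with shMPZL3 #1 (log2 scale, SE, adjusted p = 0.000593), by 0.61 ± 0.19 with shMPZL3 #2 (adjusted p = 0.0400) and by 0.83 ± 0.20 in the grouped comparison (adjusted p = 0.0171). The shMPZL3 #2 call was lost without scr control replicate 1 or 2 or without shMPZL3 #2 replicate 1 or 3, and the grouped call without scr control replicate 1 or 2. PRIM1 shares 33 bases with NACA on the same strand, and NACA had 46825 counts over the 9 libraries against 1916 for PRIM1, so reads at that edge are uncertain. PRIM2, its partner, fell by 0.46 with shMPZL3 #1 and had -0.21 with shMPZL3 #2, and its call was lost without scr control replicate 1. The polymerase alpha subunits did not pass the test. POLA2, the regulatory subunit, had 225, 213 and 223 normalized counts in scr control, 228, 138 and 213 with shMPZL3 #1, and 259, 239 and 241 with shMPZL3 #2. The shMPZL3 #1 libraries overlapped the controls and the shMPZL3 #2 libraries lay above them. Its log2 fold change was -0.19 ± 0.18 with shMPZL3 #1 (adjusted p = 0.450), 0.16 ± 0.17 with shMPZL3 #2 (adjusted p = 0.579) and -0.0025 ± 0.18 in the grouped comparison (adjusted p = 0.994). POLA1, the catalytic subunit, had -0.07 with shMPZL3 #1 and 0.04 with shMPZL3 #2.

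POLD3, an accessory subunit of polymerase delta, had 671, 632 and 630 normalized counts in scr control, 541, 522 and 491 with shMPZL3 #1, and 444, 548 and 497 with shMPZL3 #2. It was below every control in all 6 knockdown libraries with nearly the same fold for either shRNA, a fall of 0.31 with shMPZL3 #1 and of 0.38 with shMPZL3 #2 on the log2 scale. Its calls lay near the threshold and were lost without any scr control library. POLD1 and POLD2, the catalytic subunit and its partner, fell with shMPZL3 #1 by 0.63 and 0.59 and had -0.07 and -0.11 with shMPZL3 #2, and they were the polymerase genes called higher with shMPZL3 #2 than with shMPZL3 #1. POLE, the catalytic subunit of polymerase epsilon, fell by 0.30 with shMPZL3 #1, a call lost when any of 6 libraries was left out. POLE2 had -0.51 with shMPZL3 #1 (adjusted p = 0.0537) and -0.22 with shMPZL3 #2.

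All 8 genes of the clamp, its loader and fragment joining were called lower with shMPZL3 #1, against 1 with shMPZL3 #2 and 1 in the grouped comparison. PCNA, the clamp, had 4490, 4300 and 4467 normalized counts in scr control, 3310, 2891 and 2417 with shMPZL3 #1, and 3591, 3980 and 3693 with shMPZL3 #2. The groups did not overlap, yet only shMPZL3 #1 passed the test, with a fall of 0.62 (log2 scale) against -0.24 for shMPZL3 #2. RFC3 (chromosome 13, 33818049 to 33966558), a subunit of the loader that opens the clamp, had 1324, 1331 and 1312 normalized counts in scr control, 678, 849 and 583 with shMPZL3 #1, and 829, 1180 and 930 with shMPZL3 #2. The controls lay close together and above all knockdown libraries. RFC3 fell by 0.91 ± 0.14 with shMPZL3 #1 (log2 scale, SE, adjusted p = 0.000155), by 0.43 ± 0.14 with shMPZL3 #2 (adjusted p = 0.0444) and by 0.65 ± 0.17 in the grouped comparison (adjusted p = 0.0214). The shMPZL3 #2 call was lost when any of 6 libraries was left out, and the grouped call without any scr control library. RFC1, RFC2, RFC4 and RFC5 fell with shMPZL3 #1 by 0.46, 0.40, 0.46 and 0.83. RFC4 had 1392, 1276 and 1320 normalized counts in scr control, 986, 992 and 926 with shMPZL3 #1, and 1348, 1421 and 1306 with shMPZL3 #2, so that shMPZL3 #2 overlapped the controls. The RFC2 call was lost without scr control replicate 2 or shMPZL3 #1 replicate 3.

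LIG1, the ligase that seals Okazaki fragments, had 1170, 1088 and 1219 normalized counts in scr control, 920, 773 and 715 with shMPZL3 #1, and 1481, 1133 and 1172 with shMPZL3 #2. It was lower than control in every shMPZL3 #1 library, and shMPZL3 #2 overlapped the controls. LIG1 fell by 0.53 ± 0.12 with shMPZL3 #1 (log2 scale, SE, adjusted p = 0.00363), and had 0.12 ± 0.12 with shMPZL3 #2 (adjusted p = 0.543) and -0.17 ± 0.19 in the grouped comparison (adjusted p = 0.586). FEN1, the flap nuclease that acts before it, fell by 0.56 with shMPZL3 #1 and had -0.19 with shMPZL3 #2.

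The 3 subunits of RPA, which coats single-stranded DNA at the fork, were all called lower with shMPZL3 #1, 1 with shMPZL3 #2 and 2 in the grouped comparison. RPA1, the large subunit, had 2851, 2916 and 3062 normalized counts in scr control, 2191, 2071 and 1846 with shMPZL3 #1, and 2236, 2310 and 2205 with shMPZL3 #2. The controls lay above all knockdown libraries and the shRNA groups were close to each other. RPA1 fell by 0.53 with shMPZL3 #1 and by 0.39 with shMPZL3 #2 on the log2 scale, and by 0.46 in the grouped comparison (adjusted p = 0.00639). RPA3, the small subunit, had 578, 484 and 495 normalized counts in scr control, 327, 305 and 215 with shMPZL3 #1, and 358, 497 and 313 with shMPZL3 #2. Replicate 2 of shMPZL3 #2 lay among the controls. RPA3 fell by 0.88 ± 0.18 with shMPZL3 #1 (log2 scale, SE, adjusted p = 0.00149) and by 0.63 ± 0.19 in the grouped comparison (adjusted p = 0.0426), and had -0.42 ± 0.18 with shMPZL3 #2 (adjusted p = 0.127). RPA2 fell least, by 0.28 ± 0.10 with shMPZL3 #1 (adjusted p = 0.0422), with -0.06 ± 0.10 for shMPZL3 #2 (adjusted p = 0.725) and -0.17 ± 0.10 in the grouped comparison (adjusted p = 0.290). The RPA2 call was lost when any of 7 libraries was left out, the grouped RPA3 call when any of 6 was, and the shMPZL3 #2 call of RPA1 without shMPZL3 #2 replicate 3.

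Of 4 genes of nucleotide supply, 3 were called lower with shMPZL3 #1, 1 with shMPZL3 #2 and 2 in the grouped comparison. Of the subunits of ribonucleotide reductase, which makes deoxynucleotides, RRM1 was called and RRM2 was not. RRM1 (chromosome 11, 4094707 to 4138876), the large subunit, had 4086, 4025 and 3873 normalized counts in scr control, 2732, 2493 and 1790 with shMPZL3 #1, and 2810, 2869 and 2858 with shMPZL3 #2. All knockdown libraries lay far below the controls, and those of shMPZL3 #1 below those of shMPZL3 #2. RRM1 fell by 0.77 ± 0.12 with shMPZL3 #1 (log2 scale, SE, adjusted p = 0.000199), by 0.49 ± 0.12 with shMPZL3 #2 (adjusted p = 0.0122) and by 0.62 ± 0.13 in the grouped comparison (adjusted p = 0.00818). RRM2, the small subunit, had 1363, 1594 and 1582 normalized counts in scr control, 1393, 1636 and 1236 with shMPZL3 #1, and 1317, 1693 and 1227 with shMPZL3 #2, and all groups overlapped. Its log2 fold change was -0.09 ± 0.13 with shMPZL3 #1 (adjusted p = 0.638), -0.10 ± 0.13 with shMPZL3 #2 (adjusted p = 0.652) and -0.10 ± 0.12 in the grouped comparison (adjusted p = 0.632). Whether RRM1 and RRM2 differ in their change was not tested. The RRM1 call with shMPZL3 #2 was lost without shMPZL3 #2 replicate 3 (adjusted p = 0.0575), and the grouped call without scr control replicate 1 (adjusted p = 0.052). The thymidylate genes TYMS and TK1, which supply dTMP by synthesis and by salvage, fell with shMPZL3 #1 by 0.78 and 0.60, and had -0.35 and -0.03 with shMPZL3 #2. TYMS was also called lower in the grouped comparison, a call lost when any of 4 libraries was left out. TYMS shares 39.1% of its length with ENOSF1 on the other strand, whose counts were 55.9% of those of TYMS. The libraries carry no strand information, so reads there cannot be told apart.

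**Figure D3:**
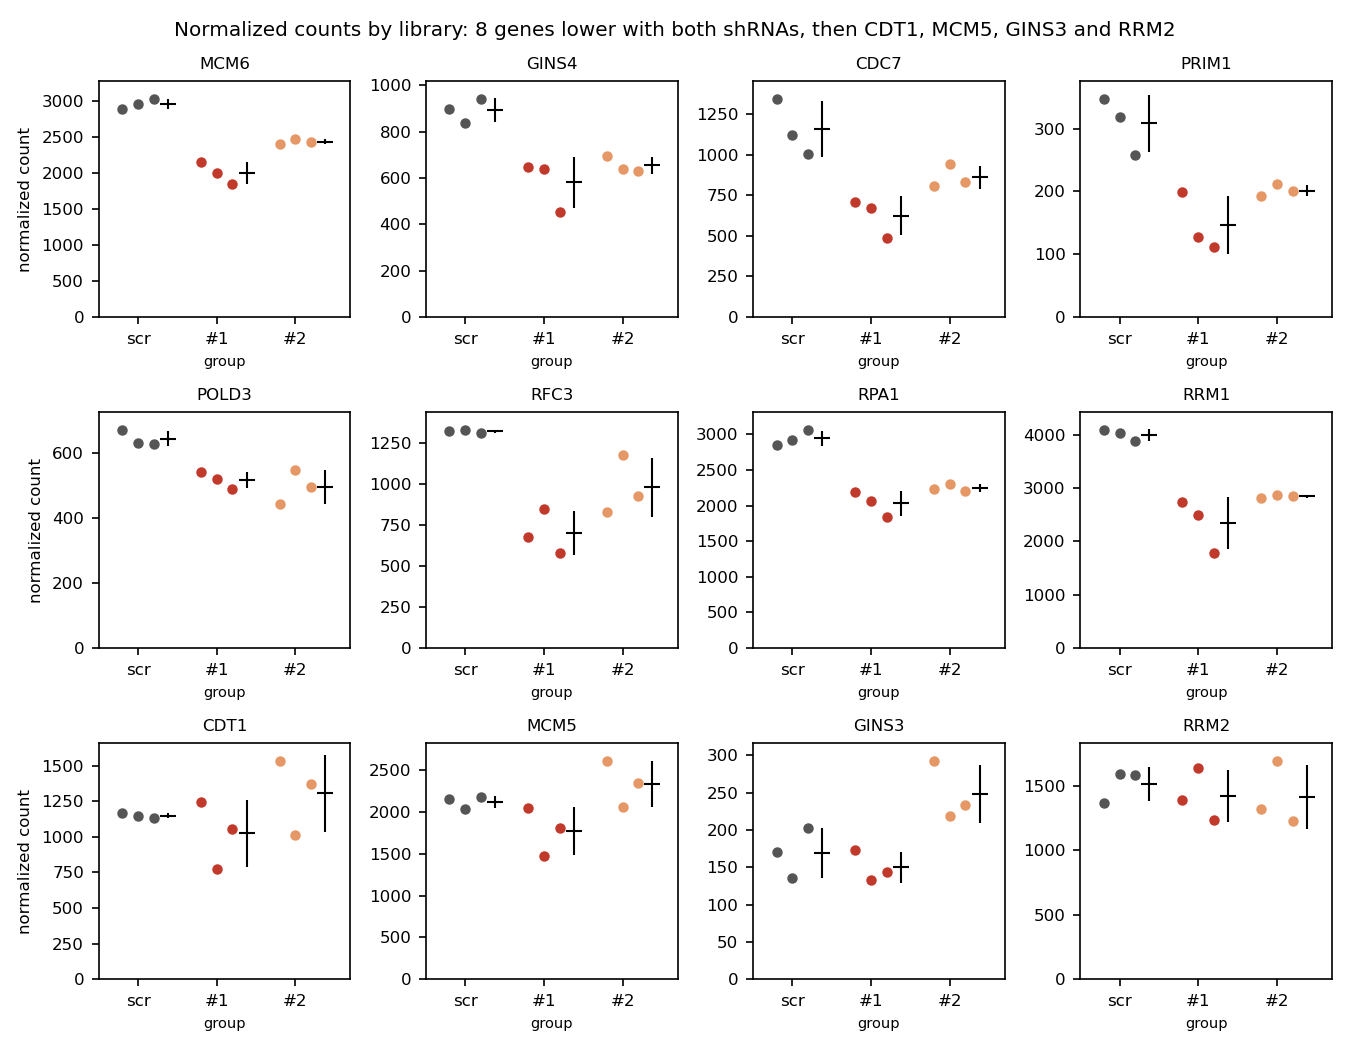
Normalized counts (y axis from 0) of 12 genes in each library, by group (scr control, shMPZL3 #1, shMPZL3 #2), with the mean and SD of 3 libraries beside the points. In the 8 genes called lower with both shRNAs the control points lie above all knockdown points, and in CDT1, MCM5 and RRM2 the groups overlap, while GINS3 is highest with shMPZL3 #2.

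The direct comparison of the shRNAs separated most of the genes. It does not rest on the control means, although the control libraries enter the estimate of the spread. With shMPZL3 #2, 27 of 43 were called higher than with shMPZL3 #1, where 7.56% of all genes tested were called higher, and 0 were called lower, against 7.56% of all genes. No gene was lower at an unadjusted p under 0.05, and DESeq2 called none lower. The median log2 difference was 0.40 (range -0.06 to 0.72), beside 0.01 over all genes. The 5 genes with the smallest p were GINS1 (0.66 ± 0.12 SE, adjusted p = 0.00142), LIG1 (0.65 ± 0.12, adjusted p = 0.00190), RFC4 (0.49 ± 0.09, adjusted p = 0.00211), ORC6 (0.51 ± 0.10, adjusted p = 0.00287) and TK1 (0.57 ± 0.12, adjusted p = 0.00308). These 5 calls held whichever library was left out, as did 9 of the 27 in all. GINS1 had 451 to 535 normalized counts with shMPZL3 #1 and 728 to 829 with shMPZL3 #2, ORC6 had 1227 to 1578 and 1940 to 2048, and TK1 had 4940 to 6545 and 7274 to 8905. In each of these genes the shRNA groups did not overlap. GINS3 had the widest difference, 0.72 ± 0.18 (adjusted p = 0.0134), and with MCM5 (0.40 ± 0.12, adjusted p = 0.0329) it differed between the shRNAs without being called in either comparison with scr control. The GINS3 call was lost without shMPZL3 #1 replicate 2 or shMPZL3 #2 replicate 1, and the MCM5 call when any of 6 libraries was left out. The difference was called in 6 of 6 MCM2-7 genes, 7 of 8 helicase activation genes and 7 of 8 clamp, loader and joining genes, but in 2 of 9 polymerase and primase genes and 0 of 3 RPA genes. Of the 8 genes lower with both shRNAs, MCM6, CDC7 and RFC3 also differed between them, calls that were lost when any of 8, 5 and 4 libraries was left out. For POLD3 the difference was -0.06 ± 0.12 (adjusted p = 0.773) and for RRM2 -0.01 ± 0.13 (adjusted p = 0.970). All 3 shMPZL3 #1 libraries lay below all 3 shMPZL3 #2 libraries for 30 of 43 genes, against 15.4% of all genes tested. The group means ran in the order shMPZL3 #1, shMPZL3 #2, scr control for 32 genes, against 23.6% of all genes. The count of 27 was 17 and 11 without shMPZL3 #1 replicates 2 and 3, and 10 and 13 without shMPZL3 #2 replicates 1 and 3. MPZL3 itself was lower with shMPZL3 #1, and its part in this difference was not tested.

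**Figure D4:**
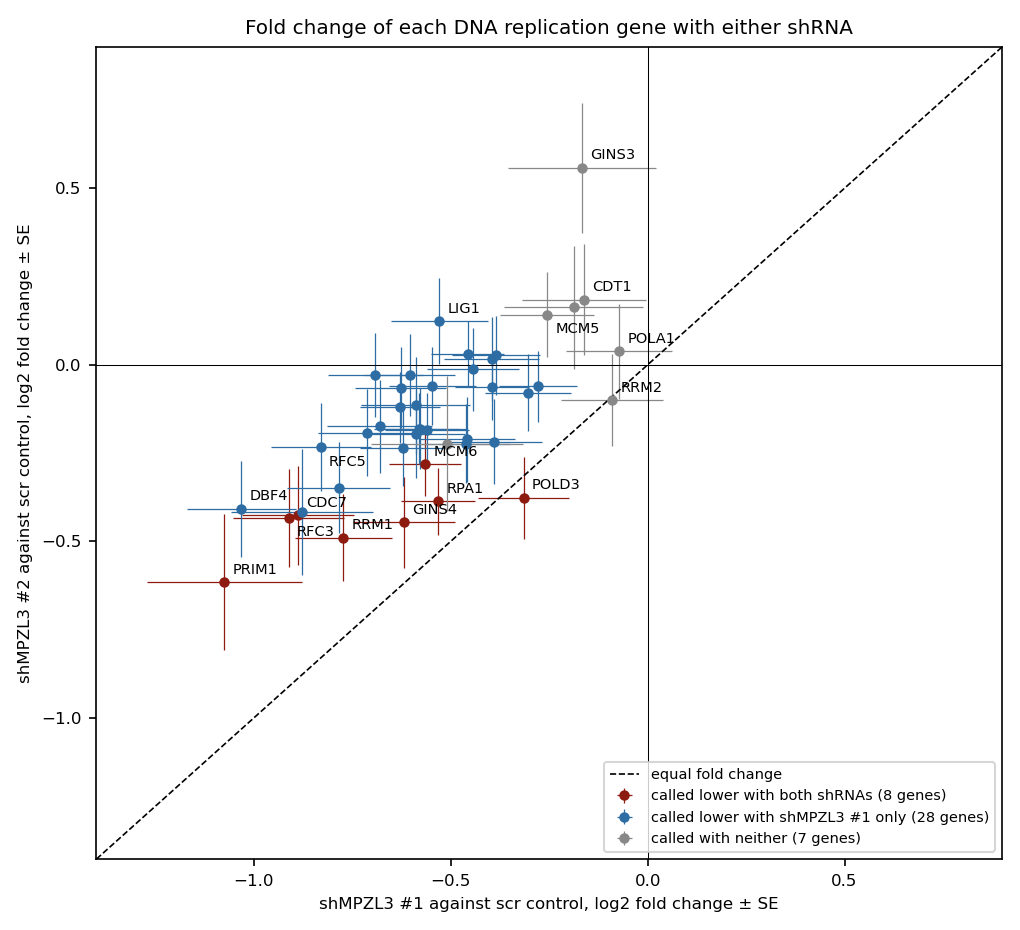
Log2 fold change against scr control with shMPZL3 #1 (x axis) and shMPZL3 #2 (y axis) for each of the 43 genes, with SE bars, coloured by which shRNA gave a call. Nearly all points lie above the dashed line of equal change, 41 of 43, and POLD3 and RRM2 lie on the other side of it.

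The knockdown libraries were not alike within a group. Over the 43 genes the median log2 ratio to the control mean was -0.39, -0.57 and -0.71 in the shMPZL3 #1 libraries, and 40, 41 and 43 of the genes lay below the control mean there. In the shMPZL3 #2 libraries the medians were -0.14, -0.15 and -0.20, with 29, 34 and 37 genes below. Replicate 3 of shMPZL3 #1 was the lowest of its group for 31 genes and replicate 2 for 11, among them CDT1, MCM2, MCM5, MCM7, MCM10, POLD1, POLD2, FEN1 and TK1. Replicate 2 was the lowest library of shMPZL3 #2 for 13 genes, and 10 genes were in both sets, 90.9% of the first and 76.9% of the second. The lowest library was not counted over all genes tested, so the overlap cannot be called particular to the replication genes. Over all genes tested, deviations of these replicate 2 libraries from their group means correlated at 0.22. The median coefficient of variation of the replication genes was 3.67% among scr control libraries, 15.0% with shMPZL3 #1 and 6.85% with shMPZL3 #2, beside 10.1%, 14.6% and 13.1% over all genes tested.

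Levels of subunits within a complex differed by several fold, in counts per kilobase of gene length per 1000000 counts. In scr control MCM7 had 98.7 ± 3.09 (SD, n = 3) and MCM5 had 14.1 ± 0.504, a ratio of 7.01. Between them lay MCM2 at 32.3 ± 0.974, MCM6 at 35.0 ± 0.787, MCM4 at 46.2 ± 1.13 and MCM3 at 50.3 ± 0.755. With shMPZL3 #1 the ratio was 6.15 and the order was as in scr control, with MCM2 and MCM6 within their summed SD of each other. With shMPZL3 #2 the ratio was 6.29 and MCM6 at 28.8 ± 0.372 stood below MCM2 at 31.0 ± 2.09, a gap within their summed SD. GINS3 was the lowest GINS subunit in each group, at 1.62 ± 0.316 against 9.42 ± 1.19 for GINS1 in scr control, where GINS2 and GINS4 lay within their summed SD of each other. POLD3, at 5.70 ± 0.208, was far below its partners POLD1 and POLD2, at 45.7 ± 2.04 and 64.7 ± 0.148. RPA1 and RPA2 lay within their summed SD of each other in scr control, at 26.1 ± 0.957 and 25.7 ± 1.27, and RPA3 had 7.82 ± 0.779. With shMPZL3 #2 RPA1 had 20.0 ± 0.476 and RPA2 24.6 ± 0.849. PRIM1 was above POLA1 in scr control, at 6.16 ± 0.904 against 4.30 ± 0.196, and below it with shMPZL3 #1, at 2.92 ± 0.923 against 4.09 ± 0.604, where the gap was within their summed SD. Gene length is the summed length of all annotated exons, so each level is an average over them. Ratios and orders between genes thus depend on the annotated length, 7338 bases for MCM5 and 4386 for MCM7. Before division by length, the scr control means were 2123 normalized counts for MCM5 and 8889 for MCM7. The SD is the spread between libraries for 1 gene, and levels were not tested between genes.

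**Figure D5:**
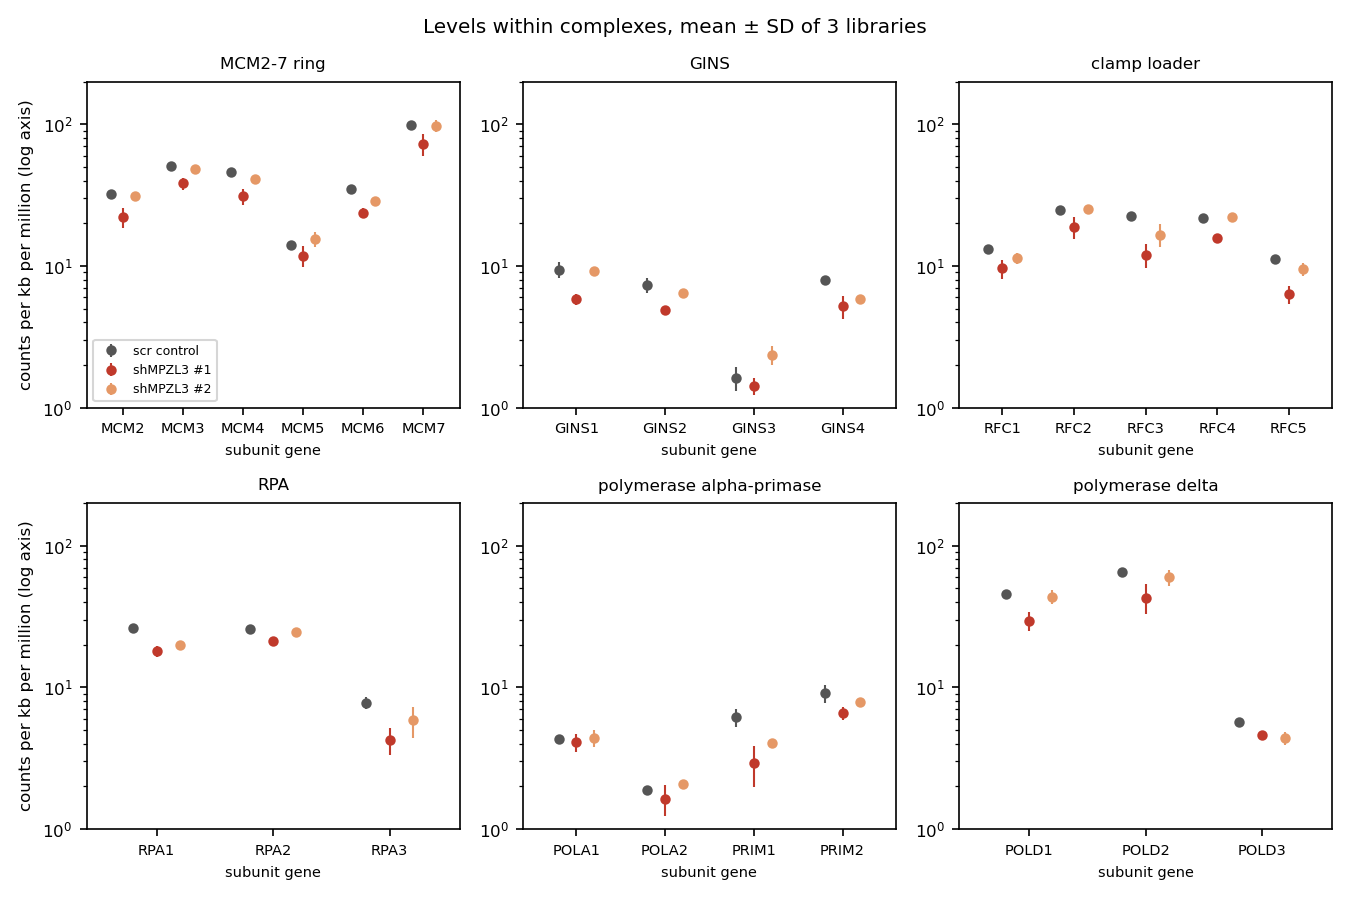
Level of each subunit gene (log y axis, counts per kilobase per 1000000) by complex, as the mean and SD of 3 libraries for each group. MCM7 stands at 98.7 and MCM5 at 14.1 in scr control, and the order of the MCM genes is as in scr control with shMPZL3 #1.

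Most further genes of the pathway moved in the same direction. The 39 other replication genes include the remaining origin recognition subunits, firing factors, fork protection, topoisomerases and chromatin assembly. Of these, 28 were called lower with shMPZL3 #1, 11 with shMPZL3 #2 and 16 in the grouped comparison. Over all genes tested the shares called lower were 15.3%, 5.8% and 6.4%. Fold changes above 0 were found in 1, 5 and 2 of the 39. None was called or had an unadjusted p under 0.05 for a rise in these comparisons. Their median log2 fold change was -0.44, -0.24 and -0.34. The lowest in the grouped comparison were PCLAF, a PCNA-binding factor, at -0.90 ± 0.21 (SE, adjusted p = 0.0130), MTBP, a partner of the firing factor TICRR, at -0.75 ± 0.18 (adjusted p = 0.0145), and the topoisomerase TOP2A at -0.73 ± 0.15 (adjusted p = 0.00760). Between the shRNAs, 10 of the 39 were called higher with shMPZL3 #2 and 1, the reductase subunit RRM2B, was called lower. Of all genes tested, 7.56% were called higher and 7.56% lower. Of 18 mitotic kinases, cyclins and phosphatases, 15 were called lower with shMPZL3 #1, 8 with shMPZL3 #2 and 14 in the grouped comparison. Beside them stand the same shares of all genes, 15.3%, 5.8% and 6.4%. The median log2 fold changes of the 18 were -0.79, -0.40 and -0.61. The lowest were the spindle checkpoint kinase TTK at -0.81 ± 0.16 (adjusted p = 0.00511), the phosphatase CDC25C at -0.78 ± 0.14 (adjusted p = 0.00384) and cyclin B1 (CCNB1) at -0.78 ± 0.18 (adjusted p = 0.0130). Between the shRNAs, 6 of the 18 were called higher with shMPZL3 #2 and none was called lower, against 7.56% and 7.56% of all genes. Whether the mitotic and replication lists differ was not tested.

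Some genes share exon bases with a neighbor on the other or the same strand, and reads in the shared part are uncertain. Strand information, which the libraries lack, would separate such reads only where the neighbor is on the other strand. A neighbor of either kind was found for 19 of 43 genes, and for 11 the neighbor had at least 10% of the counts of the gene. The shared part was short in most of these, such as 21 bases between RFC4 and EIF4A2, 142 bases between DBF4 and SLC25A40, 186 bases between RFC5 and WSB2, and 118 bases between RPA3 and UMAD1. By the exact two-sided permutation test of the 6 knockdown against the 3 control libraries, 5 genes, GINS4, PRIM1, POLD3, RPA1 and RRM1, reached 0.0119, the smallest p that the 84 splits allow. The permutation test was not run over all genes tested, so the share of all genes at that value is not known.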

How the data were processed

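RNA sequencing of OVCAR4 cells gave 9 libraries, 3 each of scr control, shMPZL3 #1 and shMPZL3 #2. The libraries were poly-A selected and non-directional and were sequenced on the Illumina NovaSeq platform. The authors deposited raw counts for each gene and each library, neither scaled nor pooled, and the submitters' processing notes name HISAT2 2.0.5, featureCounts 1.5.0-p3 and hg38. The annotation is not given in the sources used here, but the gene lengths of the table equal the exon unions of GENCODE release 29 for 58724 of 58735 genes. The other deposited value used, gene length in bases, served to express levels per kilobase. Gene coordinates are from GENCODE release 29 on GRCh38.

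Counts were analysed with edgeR 4.0.16 (R 4.3.3), TMM scaling (factors 0.983 to 1.03) and filterByExpr, which left 16928 genes holding 99.8% to 99.9% of each library's counts. Mitochondrial genes took 7.16% to 8.65%. Two-sided quasi-likelihood tests compared the 6 knockdown with the 3 scr control libraries and, in a fit of the 3 groups, each shRNA with scr control and with the other, with Benjamini-Hochberg adjustment and calls at 0.05. The study's methods name DESeq2 (here 1.42.0), which was an alternative. Further alternatives were RLE and upper-quartile scaling, no filter, at least 10 counts in every library, a replicate block, the mean of the shRNA contrasts, a threshold of 0.01 and leaving out each library. Log2 CPM used a prior count of 2. The script was tested on simulated counts. Counting error, the square root of the count as a share of it, was 1.03% to 8.48% for the 43 genes (median 3.03% in scr control), and the coefficient of variation between replicates was no larger than it for 11 of the 43 in scr control, for 1 with shMPZL3 #1 and for 6 with shMPZL3 #2. Within each group every pair of replicates differed beyond counting noise (chi-square per gene 3.03 to 21.2).

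The 43 genes, their roles and the other lists were chosen with earlier results of these data known, so counts over them are descriptions. Full statistics are given for the genes with the lowest and highest grouped fold change in each of the 7 roles, and for the 5 with the smallest p between the shRNAs. Of the other lists, the 3 lowest in the grouped comparison are named. GINS4, CDC7, POLD3, RPA1, PCNA and the remaining members are given with fewer values.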

Additional observations from a re-analysis of the deposited data

Results flagged for a closer look

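The response of the replication genes differed between the shRNAs. A test of shMPZL3 #2 against shMPZL3 #1 with edgeR's quasi-likelihood test called 27 of 43 genes, all lower with shMPZL3 #1. The genes with the smallest p were GINS1, with a log2 difference of 0.66, LIG1 with 0.65, RFC4 with 0.49, ORC6 with 0.51 and TK1 with 0.57. For LIG1 and RFC4 the fold change against scr control was 0.12 and 0.03 with shMPZL3 #2, neither called, and -0.53 and -0.46 with shMPZL3 #1, both called.

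MCM5, CDC45, GINS3 and RFC2 likewise had estimated fold changes against scr control of opposite sign with the 2 shRNAs. None of their changes with shMPZL3 #2 was called. For CDC45 and RFC2 these were 0.03 ± 0.11 and 0.02 ± 0.12 (log2 scale, SE), smaller than their SE. The direct test called a difference of 0.40, 0.41, 0.72 and 0.41 on the log2 scale. The calls of CDC45 and RFC2 were lost when any of 2 and 4 libraries was left out. GINS3 and MCM5 were called in neither comparison with scr control. With groups of 3 libraries no single library was tested as an outlier.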

How the results depend on the processing

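All fold changes of the median gene kept their direction under every alternative. Leaving out 1 library gave 1 to 17 genes lower in the grouped comparison, 30 to 37 with shMPZL3 #1 and 0 to 10 with shMPZL3 #2, 0 to 1 higher with shMPZL3 #2, and 10 to 29 higher with shMPZL3 #2 than with shMPZL3 #1. It gave medians of -0.39 to -0.27, -0.61 to -0.47, -0.20 to -0.12 and 0.31 to 0.50 in these comparisons. The grouped count of 11 was 29 with the mean of the shRNA contrasts and 2 at an adjusted p under 0.01. The share of all genes called is not given here for either setting. The shMPZL3 #2 count of 8 was 5 with at least 10 counts in every library and 1 at an adjusted p under 0.01, and the count of 27 between the shRNAs was 10 at that threshold. GINS3, the 1 gene then higher with shMPZL3 #2, was called with DESeq2, upper-quartile scaling, no filter, at least 10 counts in every library and the replicate block. The cause of these shifts was not tested.

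Libraries with the same replicate number were not taken as pairs, since the labels give no shared source and the correlation of their deviations from the group means was above 0.1 in 3 of 9 pairs. Between the shRNA groups it was 0.097 to 0.22 and all 6 libraries correlated best with their own number, a hint of pairing in the data. Of the pairs of unlike number 5 of 6 were negative. That follows largely from removing the group means once like pairs are positive, so it adds no separate hint. Against scr control the correlation of pairs with the same number was -0.0014 to 0.11. With the replicate block 38 genes were lower with shMPZL3 #1, 11 with shMPZL3 #2 and 11 in the grouped comparison, and 31 were higher with shMPZL3 #2 than with shMPZL3 #1. Over all genes tested, the block took the calls lower with shMPZL3 #1 from 2585 to 3104 and with shMPZL3 #2 from 982 to 1597. Calls lower in the grouped comparison went from 1083 to 990. Those higher with shMPZL3 #2 than with shMPZL3 #1 went from 1279 to 2015.

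For the genes with full statistics, 967 of 1098 values under alternatives kept their direction and side of the threshold, 74 lost a call, 34 gained one and 23 changed sign. None of the 23 was a call. Where leaving out 1 library changed a sign, the range over the 9 omissions was -0.080 to 0.12 for CDT1, -0.13 to 0.037 for MCM5 and -0.062 to 0.10 for POLA2 in the grouped comparison. With shMPZL3 #1 it was -0.30 to 0.0035 for CDT1, -0.30 to 0.0027 for POLA2 and -0.20 to 0.0013 for RRM2. With shMPZL3 #2 it was -0.022 to 0.19 for LIG1, -0.25 to 0.0043 for RRM2, -0.097 to 0.071 for GINS1, -0.0049 to 0.073 for RFC4 and -0.11 to 0.044 for TK1. Between the shRNAs it was -0.16 to 0.10 for RRM2. Besides, in the grouped comparison CDT1 was -0.010 with the replicate block, and POLA2 was 0.015 with upper-quartile scaling, 0.0011 with no filter and 0.025 with at least 10 counts in every library. Counting error reached 8.48% among the 43 genes, and the effect of depth on the calls was not tested.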
